A study of Homo sapiens with 58 samples.

Results

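The fresh and the dried rhizome of ginger were compared at the same concentration in HepG2, an established human hepatocellular carcinoma cell line that keeps many hepatocyte genes active. Of the 58 libraries of the series, 6 carry the labels of this comparison: 3 of cells given the medium dose of Zingiberis Rhizoma Recens, called fresh ginger here, and 3 of cells given the medium dose of Zingiberis Rhizoma, called dried ginger. Both were 70% ethanol extracts at 100 µg/mL for 24 h, and the labels give the libraries of both gingers the code prefix 9. The protocol describes dried plant material for every extract and does not say how the fresh rhizome was handled before extraction. Alongside stood 3 vehicle libraries of cells given the solvent DMSO at 0.1% by their labels, whereas the series text gives another percentage. The same extracts at a low dose of 20 µg/mL (3 and 3 libraries) and a high dose of 500 µg/mL (3 of fresh and 2 of dried ginger) came from other libraries. The labels do not say whether the replicates of a group came from separate cultures. The p-values measure the spread between libraries within groups, estimated over all 58 libraries of the series, and this spread may be technical.

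As background, ginger rhizome is rich in gingerols, and drying or heating turns part of them into shogaols, which react more readily with thiols. No compound was measured in this series. Liver cells answer low oxygen through HIF transcription factors, which raise genes of glucose uptake, glycolysis and oxygen sensing. They answer metals through MTF1, a zinc-sensing transcription factor that raises metallothioneins, small cysteine-rich proteins that bind zinc and copper, and the zinc exporter SLC30A1. NRF2 governs the answer to reactive compounds and AhR the answer to aromatic ligands, including CYP1A1.

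The summed expected counts ran from 22417427 to 26050396 in the fresh ginger libraries and from 26017461 to 29052413 in the dried ginger libraries, within a range of 22143845 to 31859981 over the series. The 11 hepatocyte markers checked were all detected and summed to 46342 to 47953 CPM (counts scaled to the size of each library) with fresh ginger, 43918 to 44305 with dried ginger and 42844 to 43330 with the vehicle. Of the fibroblast and leukocyte markers, COL1A2, DCN, POSTN, PTPRC and CD3E were at 0 in every ginger and vehicle library. The summed leukocyte list was 1691 to 1823 CPM with fresh and 1274 to 1313 with dried ginger, almost all of it from LYZ, the lysozyme gene, and the summed fibroblast list was 13.9 to 14.7 and 8 to 8.75 CPM. Genes of the mitochondrial DNA took 9.73% to 10.6% of the counts with fresh ginger, 8.79% to 9.51% with dried ginger and 8.67% to 9.53% with the vehicle. That share moved with the extract, and its part in the results was not tested. In bulk RNA, fewer cells of a kind and less RNA per cell cannot be told apart.

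Fresh and dried ginger at the same concentration gave different profiles. Of the gene lists, 28 of 32 hypoxia genes and 13 of 20 immediate early genes were higher with fresh ginger, and all 7 tested metallothioneins were lower. By edgeR's quasi-likelihood test, 998 of 13945 tested genes (7.16%) differed between the extracts at an adjusted p below 0.05, here termed called. Fresh ginger was higher in 601 of them (4.31% of tested genes) and lower in 397 (2.85%). Counts within gene lists at this dose are to be read against these shares. Most differences were small, with a median absolute log2 difference of 0.23 among called genes, and 34 reached 2-fold, 25 of them higher and 9 lower in fresh ginger. Against the vehicle, fresh ginger had 1575 called genes (11.3%), 924 higher (6.63%) and 651 lower (4.67%), and dried ginger 202 (1.45%), 98 higher (0.703%) and 104 lower (0.746%). Both of these counts rest on the same vehicle libraries, whose code prefix differs from that of the gingers, so prefix and treatment cannot be told apart there. The comparison between the extracts lies within 1 prefix. The 3 libraries of one extract did not overlap the 3 of the other in 27.7% of tested genes, called or not, so an absence of overlap is a description of the values and no result by itself. Without fresh ginger replicate 1 the count between the extracts was 657, and without each of the other 5 libraries it was at most 814.

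**Figure D1:**
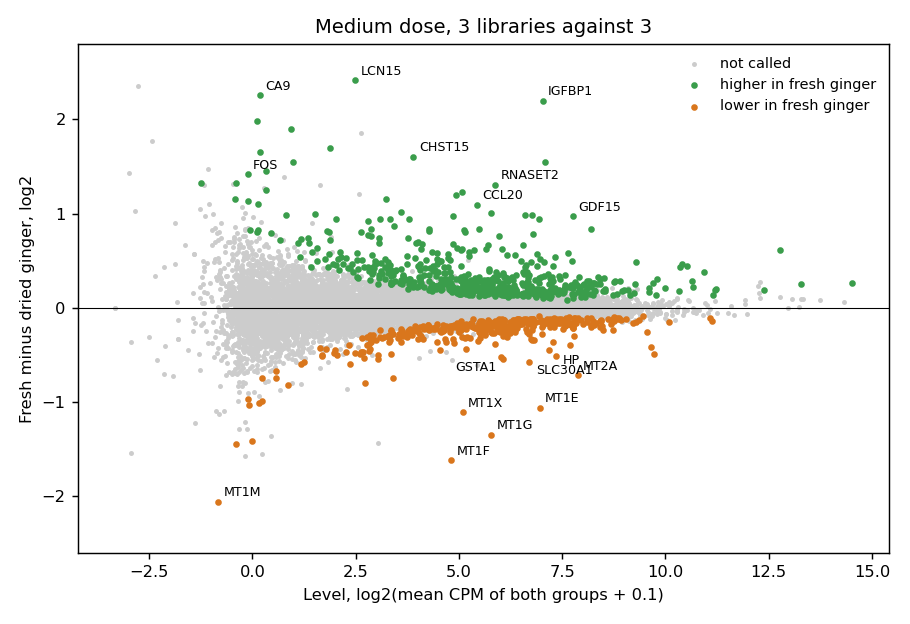
Log2 difference of fresh minus dried ginger at the medium dose (vertical axis) against the level of each tested gene, the log2 of the mean CPM of both groups plus 0.1 (horizontal axis), with called genes in colour, 601 green above the line and 397 orange below it, and 11 genes that were not called lie beyond the axis. IGFBP1, LCN15 and CA9 stand at the top, and the metallothionein genes MT1M, MT1F, MT1G, MT1X, MT1E and MT2A at the bottom.

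IGFBP1 and RNASET2, both secreted, were among the largest rises with fresh ginger. IGFBP1, an insulin-like growth factor binding protein that liver cells release when insulin signalling is low or under stress, stood at 218, 205 and 219 CPM with fresh ginger, at 41.9, 51.2 and 47.1 CPM with dried ginger and at 42.3, 38.4 and 46 CPM with the vehicle. The dried ginger libraries lay among or just above the vehicle libraries, and all fresh ginger libraries lay far above both. The log2 difference between the extracts was 2.20 ± 0.114 (SE, n = 3 and 3, adjusted p = 3.28e-19). RNASET2, a secreted and lysosomal ribonuclease, stood at 81.5, 85.7 and 83.2 CPM against 32.6, 35.3 and 33.4 (1.31 ± 0.065, adjusted p = 7.68e-20). Both genes met the rule for the largest rises, which took only called genes without overlap between the extracts. Their separation is therefore no result by itself, and 27.7% of all tested genes had no overlap.

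Further large rises are given by gene. LCN15, a secreted lipocalin, rose from 1.58, 1.94 and 1.67 CPM with dried ginger to 8.99, 9.62 and 9.18 with fresh ginger (log2 difference 2.42 ± 0.156, adjusted p = 5.46e-16), with the vehicle at 0.741, 0.93 and 1.34. CP, the copper-carrying plasma ferroxidase ceruloplasmin, stood at 140, 148 and 147 CPM against 73.2, 75.3 and 71.7 (0.98 ± 0.070, adjusted p = 7.58e-15). APOL1, a plasma apolipoprotein, stood at 72.1, 73.9 and 72 CPM against 36.7, 36.5 and 35.6 (1.00 ± 0.074, adjusted p = 2.78e-14). LOX, which cross-links collagen, differed by 1.195 ± 0.102 and GDF15, a stress-induced circulating cytokine, by 0.97 ± 0.064. CHST15, a chondroitin sulfotransferase (1.60 ± 0.104), FXYD1, a regulator of the sodium pump (1.70 ± 0.163), TMCC1, a protein of the endoplasmic reticulum (1.23 ± 0.082), and PLAC8 (1.01 ± 0.076) were also among the largest rises, which were picked among genes without overlap.

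Among 18 tested genes of IGF binding and FOXO1 targets, 7 were higher and 1 lower with fresh ginger (against 4.31% and 2.85% of all tested genes), with a median log2 difference of 0.20 against -0.005 over all genes. Besides IGFBP1 these included TXNIP, an inhibitor of thioredoxin and glucose uptake (29, 32.4 and 32.1 CPM against 24.4, 24.5 and 23, a log2 difference of 0.38 ± 0.056), and TRIB1, a pseudokinase (0.33 ± 0.046). For TXNIP the vehicle libraries, at 29.3, 31.7 and 31 CPM, sat with fresh ginger, and it was the dried ginger libraries that stood below. IGFBP3, another IGF binding protein, differed by 1.32 ± 0.374 (adjusted p = 0.0277), but its 6 libraries held only 0.137 to 0.501 CPM and its call was lost under several other settings.

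Nearly all genes of hypoxia and glycolysis were higher with fresh ginger. Of 32 tested, 28 were called higher and none lower, against 4.31% of all tested genes called higher, and the median log2 difference was 0.35. PDK1, the kinase that keeps pyruvate out of mitochondria, stood at 43, 45.4 and 45.7 CPM with fresh ginger and 24.5, 26.5 and 26 with dried ginger (0.80 ± 0.076, adjusted p = 5.89e-11). SLC2A3, a high-affinity glucose transporter, stood at 370, 387 and 377 CPM against 210, 214 and 211 (0.84 ± 0.056, adjusted p = 1.17e-15). PFKFB4, which sets the level of a glycolytic activator, stood at 19.1, 18.1 and 19.7 CPM against 11.6, 12.5 and 11.2 (0.69 ± 0.093, adjusted p = 3.41e-07). Dried ginger stood lower in each, and the 3 replicates of a group lay close together.

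BHLHE40, a transcriptional repressor raised by low oxygen, stood at 37.6, 39 and 38.1 CPM with fresh and 19.6, 19.1 and 19.7 with dried ginger (0.97 ± 0.093). CA9, a carbonic anhydrase on the cell surface and a classic HIF target, gave the largest difference of the list, 2.26 ± 0.424 (adjusted p = 1.85e-04), at low levels of 1.31, 1.6 and 2.2 CPM against 0.378, 0.305 and 0.372. ANKRD37, another HIF target, also had few counts (2.32, 1.82 and 2.51 CPM against 0.961, 1.1 and 1.3, a log2 difference of 0.99 ± 0.237, adjusted p = 0.00409). VEGFA, the angiogenic growth factor, differed by much less, 0.23 ± 0.041, with 109, 107 and 106 CPM against 90.8, 95.3 and 89.6. The 4 members that were not called, named here after their values were seen, were ADM (0.24), ANGPTL4 (0.19), HILPDA (0.05) and MXI1 (-0.08). The glycolytic enzymes themselves differed by modest amounts, and the list ran from -0.08 to 2.26 in all.

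The promoters of ANKRD37 and CA9 are shown because these known HIF targets had the largest differences of the list. Each is the 250 bases before the RefSeq transcription start on GRCh38.p14, 5′ to 3′ on the gene's strand, for ANKRD37 chr4:185396591-185396840 (+) and for CA9 chr9:35673678-35673927 (+). Capitals mark the core of the hypoxia response element, ACGTG or GCGTG, found on either strand.
ANKRD37: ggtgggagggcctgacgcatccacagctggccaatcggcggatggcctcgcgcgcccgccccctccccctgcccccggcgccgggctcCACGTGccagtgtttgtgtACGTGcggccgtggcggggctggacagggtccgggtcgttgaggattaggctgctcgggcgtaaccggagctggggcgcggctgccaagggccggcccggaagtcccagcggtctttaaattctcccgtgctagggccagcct
CA9: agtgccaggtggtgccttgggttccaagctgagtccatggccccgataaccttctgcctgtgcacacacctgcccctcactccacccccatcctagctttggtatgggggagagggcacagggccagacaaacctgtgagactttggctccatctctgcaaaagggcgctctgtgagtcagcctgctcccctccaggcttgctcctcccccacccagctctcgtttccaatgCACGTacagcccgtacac
ANKRD37 holds 3 matches, of which a pair overlaps as the palindrome CACGTG, and CA9 holds 1 close to the start. Of the 27 list members with a RefSeq promoter, 19 (70.4%) hold at least 1 match, compared with 57.5% of 10235 promoters of tested genes and 43.1% of all 27305 promoters in the table. At least 2 matches are held by 33.3% of these members and by 29.1% of the promoters of tested genes. A match is a description of the letters and does not show that a factor binds there.

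Immediate early genes, the transcription factors and regulators that answer growth signals and stress within minutes, were higher with fresh ginger in 13 of 20 tested members and lower in none, with a median log2 difference of 0.38. Of all tested genes, 4.31% were called higher. EGR1 stood at 17.5, 17.6 and 15.9 CPM with fresh ginger, 10.4, 10.2 and 9.94 with dried ginger and 12.7, 11.6 and 11.9 with the vehicle (0.74 ± 0.086, adjusted p = 1.03e-08). The dried ginger libraries thus lay below the vehicle libraries and the fresh ginger libraries above them. Against the vehicle, the difference of fresh ginger was called and that of dried ginger was not (adjusted p = 0.179 by edgeR). IER3, a survival gene, stood at 137, 125 and 125 CPM against 64, 63.8 and 68.3 (0.98 ± 0.064), and ZFP36, which destabilises cytokine mRNAs, at 12.5, 14.1 and 11.7 against 5.08, 6.59 and 5.51 (1.16 ± 0.106). FOS (1.42 ± 0.263) and NR4A1, an orphan nuclear receptor (0.77 ± 0.119), were also higher, FOS at only 0.957 to 1.33 CPM with fresh ginger.

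Feedback genes of ERK signalling and EGFR ligands were higher in 7 of 17, against 4.31% of all tested genes, and lower in none, with a median of 0.09. SPRY4, an inhibitor of receptor tyrosine kinase signalling, stood at 84.9, 79.1 and 74.2 CPM against 52.2, 50.5 and 51.4 (0.63 ± 0.053, adjusted p = 1.67e-12), and ERRFI1, an EGFR inhibitor, at 246, 255 and 247 against 179, 179 and 174 (0.49 ± 0.036, adjusted p = 2.04e-14). Targets of SRF and YAP, which report actin tension and cell spreading, were higher in 9 of 20, against the same 4.31%, and lower in none, with a median of 0.14. They included ANKRD1, a muscle and liver repair protein (62.7, 61.8 and 59.6 CPM against 39.7, 38.7 and 40.6, 0.63 ± 0.066), CCN1, a matrix signalling protein (0.68 ± 0.067), and TAGLN, an actin-binding protein (0.34 ± 0.071).

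NF-kB targets and chemokines were higher in 9 of 14 tested members, against 4.31% of all tested genes, and lower in none. The median was 0.23, and 8 further members of the list were too low to test. CCL20, a chemokine that draws lymphocytes and dendritic cells, stood at 60, 57.2 and 60.2 CPM with fresh ginger, 29.8, 26.7 and 26.6 with dried ginger and 21.7, 21.4 and 24.4 with the vehicle. The libraries stood in the order fresh, dried, vehicle without overlap. Dried ginger against the vehicle did not pass the edgeR test (adjusted p = 0.0818). The log2 difference between the extracts was 1.09 ± 0.083 (adjusted p = 5.96e-14). BIRC3, an inhibitor of apoptosis (0.72 ± 0.136), RELB, an NF-kB subunit (0.59 ± 0.149), and UBD, a ubiquitin-like modifier (0.50 ± 0.088), were the next largest.

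Metallothioneins moved the other way. All 7 tested members were called lower with fresh than with dried ginger, against 2.85% of all tested genes called lower, with a median log2 difference of -1.11. The remaining member of the list, MT1H, was too low to test. MT1G stood at 30.3, 30.5 and 31.5 CPM with fresh ginger, 91, 84.3 and 59.9 with dried ginger and 146, 126 and 143 with the vehicle (fresh minus dried -1.35 ± 0.129, adjusted p = 6.15e-11). MT1X stood at 21.4, 20.3 and 22.6 CPM, 46.8, 46.4 and 45.6 CPM and 68.9, 63.3 and 72.6 CPM in the same order (-1.11 ± 0.088, adjusted p = 2.09e-13). MT1F stood at 14.2, 13.9 and 12.9 CPM, 43, 41.7 and 41.1 CPM and 62.1, 54.1 and 63 CPM (-1.62 ± 0.089, adjusted p = 1.72e-18). In these 3 genes the groups were ordered vehicle, dried ginger, fresh ginger without overlap. At the low dose the mean of MT1G was 108 CPM with fresh and 97.3 with dried ginger, against 138 with the vehicle. These means were 57.8, 54.8 and 68.3 CPM for MT1X and 53.8, 48.1 and 59.7 CPM for MT1F. The low dose means of both extracts were thus also below the vehicle, where prefix and treatment cannot be told apart.

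MT2A, usually the most broadly expressed member, stood at 164, 179 and 189 CPM with fresh ginger, 331, 290 and 255 with dried ginger and 514, 436 and 501 with the vehicle (-0.72 ± 0.096, adjusted p = 2.86e-07). MT1E differed by -1.06 ± 0.092 and MT1M by -2.06 ± 0.413, MT1M at no more than 0.8 CPM in these 6 libraries. Against the vehicle, the log2 difference of MT1G was -2.17 ± 0.126 with fresh and -0.82 ± 0.114 with dried ginger, and that of MT2A was -1.45 ± 0.096 and -0.73 ± 0.094. Both comparisons share the vehicle libraries, whose code prefix differs from that of the gingers. At the low dose the mean of MT2A was 376 CPM with fresh and 352 with dried ginger, against 484 with the vehicle. The genes lie side by side on chromosome 16 of GRCh38, MT2A at chr16:56608199-56609497 and MT1X at chr16:56682424-56684196 on the plus strand, and their transcripts are nearly identical in part. The counting shared ambiguous reads among them, so the 7 calls are not 7 separate measurements and the split among members is uncertain.

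The promoters of MT2A and MT1X are shown because both genes were among the largest decreases and the metal response element, the site that MTF1 binds, is known from this family. Each is the 250 bases before the RefSeq start on GRCh38.p14, for MT2A chr16:56608334-56608583 (+) and for MT1X chr16:56682220-56682469 (+). Capitals mark the metal response element core, TGCACNC or TGCGCNC, on either strand.
MT2A: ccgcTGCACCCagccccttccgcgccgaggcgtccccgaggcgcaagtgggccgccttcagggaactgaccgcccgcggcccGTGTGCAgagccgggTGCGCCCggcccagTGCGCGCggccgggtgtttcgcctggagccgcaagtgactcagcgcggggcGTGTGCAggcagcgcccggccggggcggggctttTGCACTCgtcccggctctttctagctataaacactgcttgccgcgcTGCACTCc
MT1X: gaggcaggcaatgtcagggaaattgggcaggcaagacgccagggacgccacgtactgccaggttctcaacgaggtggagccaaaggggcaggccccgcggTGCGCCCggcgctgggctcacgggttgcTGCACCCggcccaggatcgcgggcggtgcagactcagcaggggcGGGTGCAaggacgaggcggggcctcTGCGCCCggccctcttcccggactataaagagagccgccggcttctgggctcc
MT2A holds 7 matches and MT1X holds 4. At least 3 matches are held by 1.56% of all 27305 promoters and by 2.27% of 10235 promoters of tested genes. These were the tested metallothioneins with an entry in the RefSeq table, and the matches describe letters only. Of 16 tested zinc transporter genes with a promoter, 4 (25%) hold at least 1 match, against 33.3% of promoters of tested genes.

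Of 18 tested zinc transporter genes, 3 were called, 2 higher and 1 lower, against 7.16% of all tested genes, and the list median was 0.04. SLC30A1, the zinc exporter of the cell membrane and a known MTF1 target, stood at 78.2, 84.2 and 85.7 CPM with fresh ginger, 122, 125 and 122 with dried ginger and 132, 132 and 128 with the vehicle (-0.57 ± 0.040, adjusted p = 3.83e-15). The dried ginger libraries lay just below the vehicle libraries and the fresh ginger libraries well below both. For dried ginger against the vehicle the difference was not called (adjusted p = 0.301 by edgeR). SLC39A10, a zinc importer, stood at 23.2, 25.4 and 24.4 CPM against 16, 16.3 and 16 (0.60 ± 0.060, adjusted p = 2.40e-10). SLC39A4, another zinc importer, stood at 110, 100 and 105 CPM against 75.1, 77.3 and 71.3 (0.50 ± 0.054, adjusted p = 2.48e-09). In the vehicle libraries the importers stood at 14.2, 14.4 and 13.8 CPM for SLC39A10 and 68.6, 69.1 and 73 CPM for SLC39A4.

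**Figure D2:**
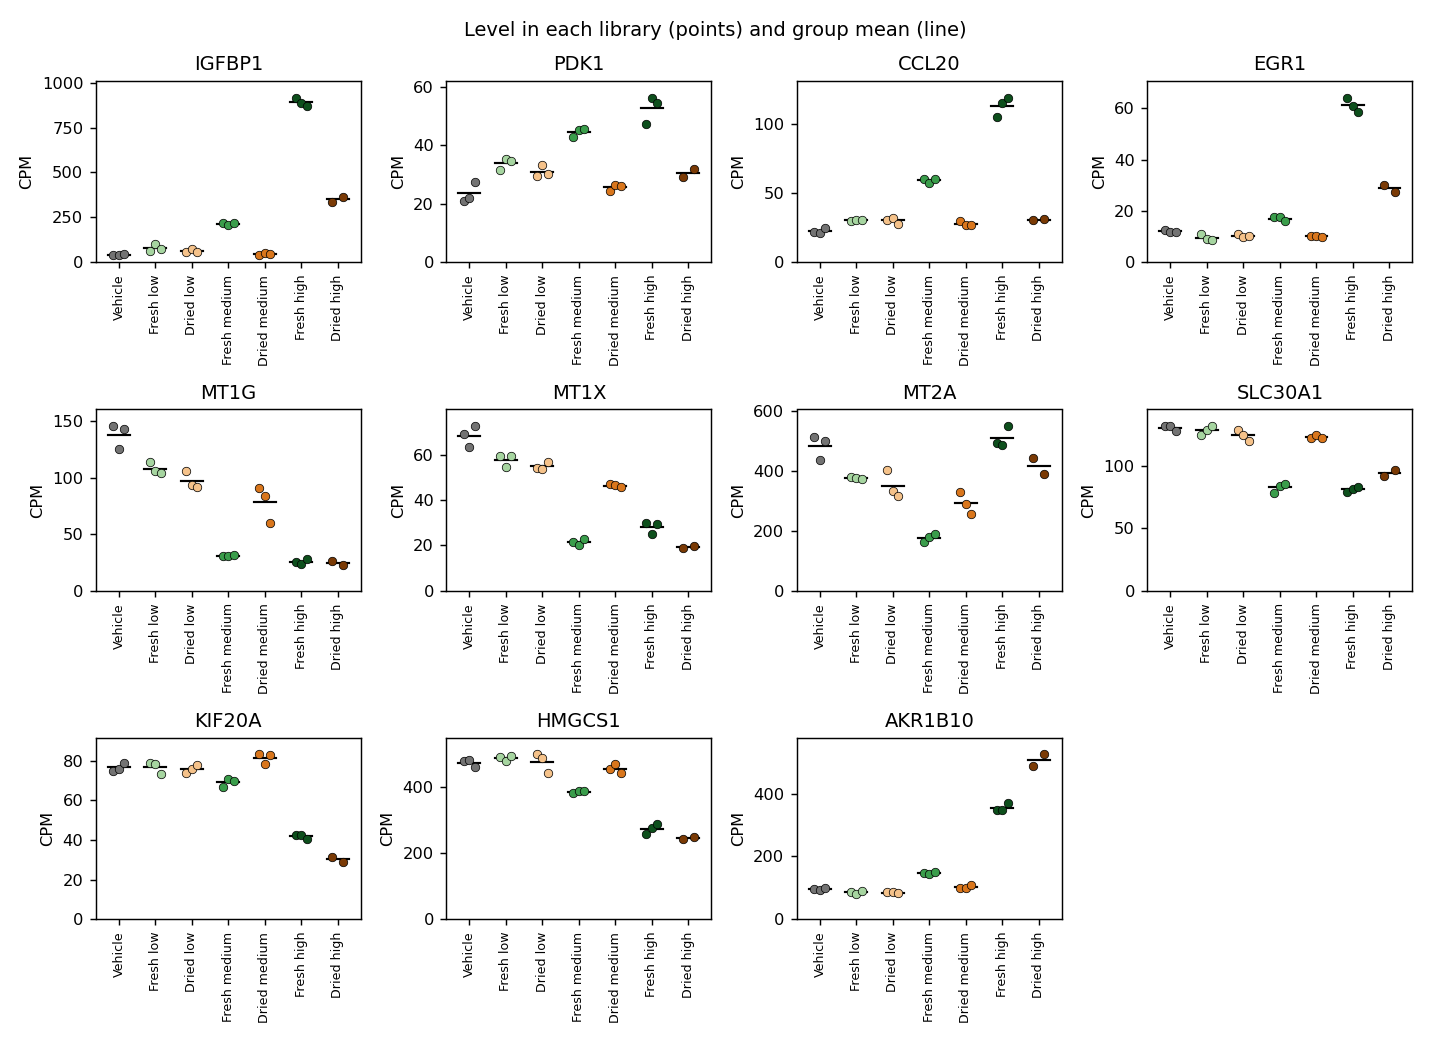
CPM of 11 genes in each vehicle and ginger library (points) with the group mean (line), each panel on its own linear axis from 0, with groups along the horizontal axis. At the medium dose the fresh and dried ginger points are apart in every panel. Several of these genes were picked among genes without overlap, which also held for 27.7% of all tested genes, so this separation is no result by itself. IGFBP1 stood at 205 to 219 against 41.9 to 51.2 CPM and MT1X at 20.3 to 22.6 against 45.6 to 46.8 CPM.

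Lipid genes were lower with fresh ginger by small amounts. Of 24 genes of cholesterol synthesis and uptake, 12 were lower and 1 higher, against 2.85% and 4.31% of all tested genes, with a median of -0.12. HMGCS1, which makes the precursor of mevalonate, stood at 383, 388 and 389 CPM against 455, 471 and 444 (-0.24 ± 0.038, adjusted p = 1.11e-05), with the vehicle at 479, 484 and 463. SQLE, the squalene epoxidase, differed by -0.23 ± 0.035 and HSD17B7, a later enzyme of the pathway, by -0.32 ± 0.047.

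Of 20 genes of fatty acid synthesis and LXR targets, 7 were lower and none higher. Over all tested genes, 2.85% were called lower and 4.31% higher. GPAM, which starts triglyceride synthesis, stood at 179, 178 and 175 CPM against 236, 231 and 230 (-0.39 ± 0.038, adjusted p = 8.22e-11), and ACSS2, which makes acetyl-CoA from acetate, differed by -0.33 ± 0.037. Of 17 genes of PPARA and fatty acid oxidation, 5 were lower, among them ACSL1 (-0.22 ± 0.039) and EHHADH (-0.19 ± 0.042), and 1 was higher, PLIN2, the coat protein of lipid droplets (167, 171 and 175 CPM against 135, 136 and 138, 0.33 ± 0.039). CPT1A, the gate of mitochondrial fatty acid import, stood at 44.5, 46.5 and 43.6 CPM against 44.9, 46.2 and 43.9, with overlap and no call (adjusted p = 0.981).

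Hepatocyte products split. Of 30 secreted plasma proteins, 4 were higher and 5 lower with fresh ginger, against 4.31% and 2.85% of all tested genes, with a median of -0.06. The lower ones were fibrinogen chains and binding proteins of haem and haemoglobin: FGA stood at 671, 721 and 681 CPM against 910, 910 and 937 (-0.41 ± 0.047, adjusted p = 6.40e-09), FGG differed by -0.49 ± 0.064, HP by -0.52 ± 0.045 and HPX by -0.49 ± 0.082. ALB, the albumin gene, stood at 10224, 10299 and 10514 CPM with fresh and 9534, 9979 and 9618 with dried ginger, which did not pass the test (0.09 ± 0.038, adjusted p = 0.157). NR1H4, the bile acid receptor FXR, stood at 51.8, 51.7 and 56.3 CPM against 76.6, 78 and 75.7 (-0.53 ± 0.047, adjusted p = 9.48e-12), and the vehicle libraries, at 75.5, 72.4 and 74.1, lay beside dried ginger.

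Among 11 tested bile acid and FXR genes, 3 were higher and 4 lower, against 4.31% and 2.85% of all tested genes. SLC51A and SLC51B encode both subunits of the bile acid exporter of the basolateral membrane, and SLC51A was higher (0.52 ± 0.124) while SLC51B was lower (-0.49 ± 0.125) with fresh ginger. BAAT, which joins bile acids to amino acids, was higher at 4.55, 3.92 and 4.47 CPM against 2.4, 2.44 and 2.53 (0.81 ± 0.139). The glutathione transferases GSTA1 (52.6, 54.8 and 55.2 CPM against 80.2, 73.4 and 82.9, -0.54 ± 0.058) and GSTA2 (-0.74 ± 0.088) and the sulfotransferase SULT2A1 (-0.36 ± 0.049) were the 3 called of 15 drug metabolism genes. GSTA1 and GSTA2 are close copies, so reads may be split between them with error. FOXA1, a pioneer factor of liver genes, was lower with fresh ginger (-0.23 ± 0.039), as was HAMP, the iron hormone hepcidin (-0.30 ± 0.076). ARG1, the last enzyme of the urea cycle, was the called gene of its list that was higher (1.54 ± 0.188), at 2.62, 2.69 and 3.1 CPM against 1.1, 0.876 and 0.893.

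Mitosis genes were lower with fresh ginger by small amounts in 13 of 24, against 2.85% of all tested genes, and higher in none, with a median of -0.14. KIF20A, a kinesin of cytokinesis, stood at 66.8, 70.6 and 69.7 CPM with fresh ginger, 83.2, 78.4 and 82.7 with dried ginger and 75, 76 and 79.1 with the vehicle (-0.24 ± 0.039, adjusted p = 2.17e-05). Fresh ginger lay below the vehicle, and dried ginger overlapped its upper end. HMMR (-0.25 ± 0.058), TTK (-0.24 ± 0.051) and NUSAP1 (-0.21 ± 0.041), all of the mitotic spindle, differed by like amounts. Of 26 DNA replication genes, 2 were called higher and none lower, RRM2, the small subunit of ribonucleotide reductase (0.18 ± 0.034), and E2F1 (0.15 ± 0.045), a share near the 4.31% of all tested genes called higher. Of 22 p53 targets, 2 were called higher, against the same 4.31%, and none lower. They were CDKN1A, the cyclin-dependent kinase inhibitor p21 (114, 112 and 109 CPM against 91.1, 90.5 and 94.9, 0.28 ± 0.036), and PLK3 (0.35 ± 0.068).

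Targets of NRF2 did not share a direction at this dose. Of 26 tested, 7 were higher and 3 lower with fresh ginger, against 4.31% and 2.85% of all tested genes, and the median was 0.01. AKR1B10, an aldo-keto reductase, stood at 147, 143 and 150 CPM with fresh, 100, 99.2 and 109 with dried ginger and 95, 93.3 and 98.9 with the vehicle (0.52 ± 0.054, adjusted p = 8.62e-10). SLC7A11, the cystine importer, stood at 64.7, 69 and 63.7 CPM against 55.7, 51.5 and 52.6 (0.30 ± 0.058), while HMOX1, haem oxygenase, was lower (-0.19 ± 0.052). NQO1 stood at 673, 678 and 686 CPM against 689, 674 and 702, with overlap and no call (adjusted p = 0.851). SQSTM1, an autophagy receptor that also stabilises NRF2, was higher by 0.24 ± 0.036.

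No AhR target was called among 9 tested, in either direction. Of all tested genes 7.16% were called, so none in so small a list is near that share. CYP1A1, the AhR target best known in liver, stood at 17.8, 14.7 and 16.4 CPM with fresh ginger, 19.8, 19.3 and 21.1 with dried ginger and 12.7, 10.8 and 14 with the vehicle. The dried ginger libraries lay above the fresh ginger libraries without overlap, but the difference of -0.29 ± 0.102 had an adjusted p of 0.0749 by edgeR, and it passed the threshold under 6 of the other settings. Of 32 ATF4 and CHOP targets, 7 were higher and 2 lower, against 4.31% and 2.85% of all tested genes, with a median of 0.05. They included GDF15 and DDIT4, an mTOR inhibitor (44.1, 42.3 and 47.7 CPM against 30.7, 30.5 and 30.8, 0.55 ± 0.096), whereas ASNS, the standard reporter of this pathway, stood at 38.7, 38.2 and 37.7 CPM against 37, 37.1 and 41.4 and did not pass the test (-0.01 ± 0.052). No gene was called among 30 ribosomal proteins, 25 nuclear respiratory chain genes or 13 respiratory chain genes of the mitochondrial DNA. The last list had a median of 0.10, and none called among 13 is again near the 7.16% of all tested genes.

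The vehicle libraries place these genes. Of the 601 genes higher with fresh than dried ginger, 410 were also called between fresh ginger and the vehicle and 34 between dried ginger and the vehicle, with median log2 differences of 0.23 and -0.04. Of the 397 lower genes, 253 and 23 were called, with medians of -0.19 and 0.02. Calls in either direction are counted here, and over all tested genes 11.3% and 1.45% were called in these comparisons. These calls share libraries with the comparison between the extracts and are given only to place the levels. The count of 202 for dried ginger against the vehicle was 51 without vehicle replicate 3, 90 without vehicle replicate 1, 97, 106 and 109 without dried ginger replicates 1, 2 and 3, and 232 without vehicle replicate 2.

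A second reference within the same code prefix was the low dose of each extract, a comparison added after the values were seen. Fresh ginger had 1314 called genes (9.42%) between the medium and low dose, 716 higher (5.13%) and 598 lower (4.29%), and dried ginger had 198 (1.42%), 96 higher (0.688%) and 102 lower (0.731%). The fresh count was 868 without medium replicate 1 and 798 without low replicate 3, and the dried count ran from 32 to 488 when single libraries were left out. The 32 came from leaving out low replicate 3, whose chi-square per gene with the other low replicates was 15.2 and 14.3 where those had 2.33 with each other. All 7 metallothioneins were lower at the medium than the low dose of fresh ginger (median -1.43), and none was called for dried ginger (median -0.25), or 5 with no filter on low counts.

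With fresh ginger, 19 of 32 hypoxia and glycolysis genes were higher at the medium than at the low dose and none lower, with a median of 0.20. With dried ginger none of them was higher and 7 were lower, with a median of -0.15. Over all tested genes, 5.13% were higher with fresh ginger and 0.731% lower with dried ginger. The 7 calls for dried ginger were 0 with only the groups compared, 3 in the ginger libraries alone, 3 without low replicate 3, which stood apart, and 1 without medium replicate 3. Leaving out any other single library of dried ginger gave 2 to 10, and the median stayed between -0.16 and -0.10. The 19 for fresh ginger were 14 to 18 without single libraries and 20 with only the groups compared. PFKFB4 stood at 19.9, 22.8 and 19.2 CPM at the low dose of fresh ginger and 15.9, 19.2 and 16.8 at the low dose of dried ginger, both above the vehicle libraries at 12.1, 11.4 and 13.1. From the low to the medium dose its log2 difference was -0.12 ± 0.087 with fresh ginger, which did not pass the test (adjusted p = 0.478), and it fell by 0.55 on the log2 scale with dried ginger (SE 0.092, adjusted p = 9.07e-04). CA9 stood at 1.08, 3.05 and 1.45 CPM at the low dose of fresh and 0.656, 1.92 and 1.17 at the low dose of dried ginger, and between the medium and the low dose it differed by -1.80 ± 0.436 with dried ginger (adjusted p = 0.0309) and by -0.13 ± 0.316 with fresh ginger, which did not pass the test. IGFBP1 rose by 1.45 ± 0.109 with fresh ginger and fell by 0.445 on the log2 scale with dried ginger (SE 0.118, adjusted p = 0.0417). By edgeR with only the groups compared, none of the 3 genes was called for dried ginger (adjusted p = 0.147 for PFKFB4, 0.36 for CA9 and 0.407 for IGFBP1). Without dried ginger low replicate 3 PFKFB4 was still called (adjusted p = 0.00333), whereas CA9 (0.112) and IGFBP1 (0.121) were not, and for CA9 and IGFBP1 the call was also lost without low replicate 2 or any 1 of the medium replicates.

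**Figure D3:**
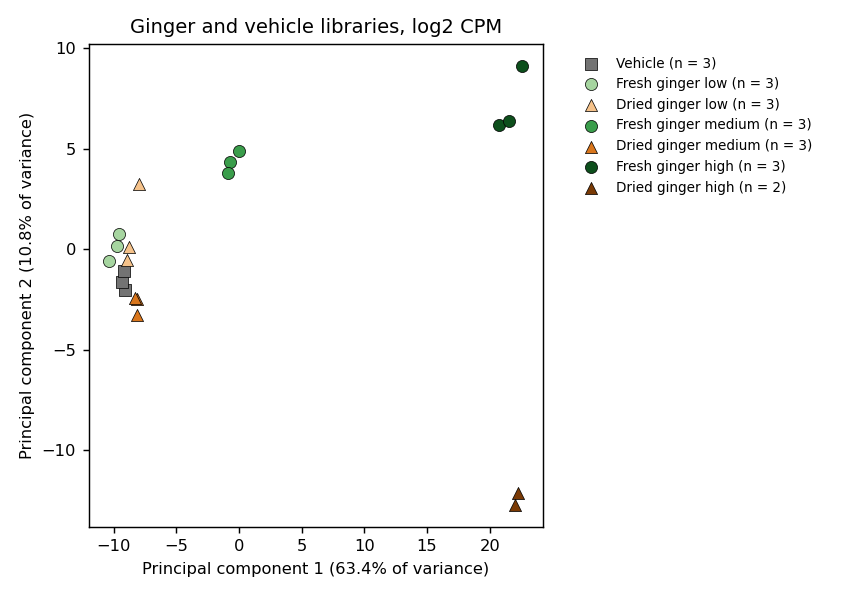
First and second principal component of log2 CPM over all vehicle and ginger libraries, with the share of variance on each axis, circles for fresh ginger, triangles for dried ginger and squares for the vehicle. The medium dose of fresh ginger lies between -0.89 and -0.02 on the first component, apart from the medium dose of dried ginger at -8.28 to -8.11, which lies near the vehicle and low dose libraries.

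At the low dose few genes were called between the extracts. These were 5 genes (0.0359%) by edgeR, with 1426 at an unadjusted p below 0.05. Of these 1 (0.00717%) was higher and 4 (0.0287%) were lower. APOC3 was higher with fresh ginger (0.35 ± 0.070), and ASNS (-0.38 ± 0.052), SLC7A11 (-0.41 ± 0.059), MARS1 (-0.20 ± 0.031) and YARS1 (-0.15 ± 0.030) were lower. The count was 29 without dried ginger low replicate 2 and 3 without fresh ginger low replicate 3 or dried ginger low replicate 3. Of the 601 genes higher at the medium dose, 265 (44.1%) had the same sign at the low dose, and of the 397 lower genes 124 (31.2%) had.

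At the high dose 3273 genes (23.5%) were called, 1846 higher (13.2%) and 1427 lower (10.2%) with fresh ginger, in libraries that the medium dose comparison does not use. The count was 2169 without dried ginger high replicate 1 and 2020 without replicate 2, each of which leaves a single library of that group, whose spread is then assumed to be that of the other groups. Of the 601 genes higher at the medium dose, 513 (85.4%) had the same sign at the high dose, 390 of them called, and 32 were called the other way. Of the 397 lower genes, 255 (64.2%) had the same sign, 130 of them called, and 70 were called the other way. The difference between extracts itself changed between the doses in 1454 genes (10.4%) by a test of the interaction, upward in 858 (6.15%) and downward in 596 (4.27%).

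Hypoxia genes (29 of 32 higher, 1 lower, median 0.44), immediate early genes (18 of 20 higher, 1 lower, median 0.60) and NF-kB genes (12 of 14 higher, median 0.45) were mostly higher with fresh ginger at the high dose too. Of all tested genes, 13.2% were called higher and 10.2% lower at that dose. SLC2A3 stood at 384, 391 and 391 CPM with fresh ginger and 153 and 159 with dried ginger at the high dose, and EGR1 at 64.2, 61 and 58.5 against 30.1 and 27.4. IGFBP1 stood at 918, 887 and 872 CPM against 338 and 362, so the level was higher in both extracts than at the medium dose and the log2 difference was smaller (1.35 ± 0.117, change -0.85 ± 0.159, adjusted p = 1.39e-04). CCL20 stood at 105, 115 and 119 CPM against 30.2 and 31.3, and its log2 difference grew to 1.88 ± 0.093.

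Metallothioneins and mitosis genes had medians on opposite sides of 0 at the doses. At the high dose 3 of 7 metallothioneins were higher with fresh ginger and none lower (median 0.30), and the change between doses was called in 6 of 7. Over all tested genes, 13.2% were higher and 10.2% lower at the high dose, and 10.4% had a called change between doses. MT1G stood at 25, 23.9 and 28.4 CPM with fresh and 25.9 and 22.7 with dried ginger at the high dose, with overlap between the extracts and every library far below the vehicle. MT2A stood at 493, 489 and 551 CPM against 443 and 389, around the vehicle level in both extracts. All 24 mitosis genes were higher with fresh than dried ginger at the high dose (median 0.36) and all 24 had a called change between doses. KIF20A stood at 42.6, 42.4 and 40.6 CPM with fresh and 31.3 and 29.1 with dried ginger, both below the vehicle.

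Other groups also parted between the doses. Their counts at the high dose stand against 13.2% of all tested genes called higher with fresh ginger and 10.2% lower. NRF2 targets were lower with fresh ginger in 21 of 26 at the high dose (median -0.39), with AKR1B10 at 348, 347 and 369 CPM against 488 and 525. CYP1A1 stood at 52.2, 47.4 and 48.4 CPM with fresh and 245 and 227 with dried ginger at the high dose (-2.26 ± 0.080, adjusted p = 2.04e-25). Cholesterol genes were higher with fresh ginger in 11 of 24 and lower in 1 (median 0.13), and p53 targets were higher in 19 of 22 (median 0.37). SLC30A1 kept its direction, at 78.9, 81.4 and 83.3 CPM against 91.6 and 97.1 (-0.22 ± 0.045), whereas SLC39A10 (0.08 ± 0.060) and SLC39A4 (0.04 ± 0.059) did not pass the test.

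**Figure D4:**
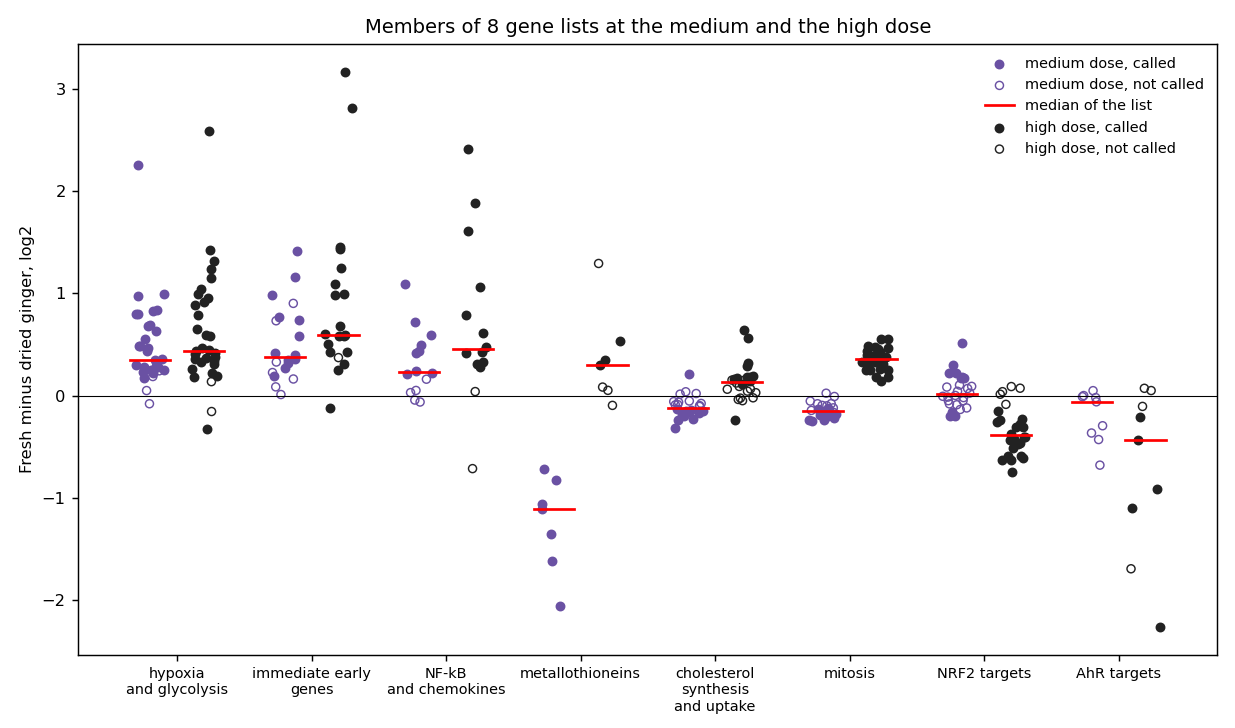
Log2 difference of fresh minus dried ginger (vertical axis) for each tested member of 8 gene lists (horizontal axis) at the medium dose in purple and the high dose in black, filled where called, with the list median in red. The medians of hypoxia, immediate early and NF-kB genes lie above 0 at both doses, while those of the metallothioneins (-1.11 and 0.30), cholesterol genes (-0.12 and 0.13) and mitosis genes (-0.14 and 0.36) lie on opposite sides.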

How the data were processed

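Total RNA with an integrity number above 7 was made into libraries with the MGIEasy RNA Directional kit and read as paired ends, per the labels' protocols. Reads were processed with FastQC 0.11.9, Trim Galore 0.6.5, STAR 2.7.3a and RSEM 1.3.3 on GRCh38, per the submitters' processing notes, with no settings given in the sources used here. The deposited values were expected counts per gene, which the authors estimated with RSEM, so reads of near-identical genes are shared by estimate. They were unscaled (75.26% of nonzero values exactly whole, a tolerance of 0) and were rounded here. Of 60675 identifiers, 57055 received a symbol, and 209 columns that no label mapped were not used.

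The test took the 13945 genes that reached 1 CPM in 3 or more libraries, with edgeR 4.0.16 in R 4.3.3: TMM scaling, a quasi-likelihood fit with 1 mean for each of 24 groups over 58 libraries, two-sided tests and Benjamini-Hochberg adjustment over all tested genes at 0.05. CPM use TMM-scaled totals. Values are log2 differences ± SE, the SE taken from the F statistic. The common dispersion of 0.00181 is a coefficient of variation of 4.25%. On simulated counts of 13945 genes for the medium dose comparison, the fit recovered 43.3%, 83.6% and 90.9% of genes changed by 1.2, 1.5 and 2 times. No replicate was a copy of another, the lowest chi-square between replicates being 2.19 per gene. Same-numbered libraries of the extracts did not pair.

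The members, the 32 gene lists, the 6 marker lists and the rule for named genes were chosen with earlier results of these data known. The rule took the 15 called genes with the largest differences each way (symbol, a mean of 5 CPM in the higher group, no overlap), up to 4 called members of a list, a panel of 26 genes, and 3 each way in other comparisons; the text describes part of them and leaves out readthrough genes and pseudogenes, and some named genes are not reported here. Alternatives were RLE scaling, DESeq2 1.42.0, other count filters, fewer groups in the fit, a replicate block, left-out libraries and, chosen after seeing the data, thinning to 1 depth. Promoter sequences are from RefSeq.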

Additional observations from a re-analysis of the deposited data

Results flagged for a closer look

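The difference between fresh and dried ginger changed from the medium to the high dose in 1454 of 13945 genes by an interaction test in edgeR (adjusted p below 0.05), and the named genes among them are given here by the change of their log2 difference. Among genes called lower with fresh ginger at the medium dose and called higher at the high dose, the change was 1.64 for MT1X, 1.41 for MT1E, 1.02 for MT2A, 1.07 for HPX, 0.77 for NUSAP1, 0.71 for KIF20A, 0.61 for TTK, 0.51 for HMMR, 0.40 for HMGCS1, 0.34 for SQLE, 0.40 for NR2F2 and 0.32 for NFIL3. The opposite holds for AQP3 (-1.30), AKR1B10 (-1.03), SLC7A11 (-0.73), SQSTM1 (-0.59) and GCLM (-0.50), which were called higher with fresh ginger at the medium dose and lower at the high dose.

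A second set of genes changed sign without a call at both doses. These were MT1M (3.35, at very low counts), MT1G (1.43), KNG1 (0.73), HP (0.54), HSD17B7 (0.47) and FGA (0.44), lower at the medium dose, and DDIT4 (-0.68), higher at the medium dose. MT1F (1.53), SLC30A1 (0.36) and ACSS2 (0.26) stayed below 0 with a smaller difference at the high dose.

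In other genes the estimated difference had the same sign at both doses. The difference was larger at the high dose, with fresh ginger higher, for UBD (1.91), FOS (1.39), TXNIP (1.07), BIRC3 (0.89), CCL20 (0.79), CDKN1A (0.72), NR4A1 (0.68), RORA (0.57), CHST15 (0.55), PFKFB4 (0.54), SLC2A3 (0.48), CCN1 (0.47), CLDN1 (0.43), TAGLN (0.41), RRM2 (0.38) and EGR1 (0.35). It was smaller for IGFBP1 (-0.85), LCN15 (-0.66), SLC39A10 (-0.52), SLC39A4 (-0.46), RNASET2 (-0.44), PLAC8 (-0.43), GDF15 (-0.39), PLIN2 (-0.26) and SPRY4 (-0.24). With fresh ginger lower, it was larger at the high dose for CYP1A1 (-1.97), GSTA1 (-0.75), ASNS (-0.73), GSTA2 (-0.69), SLC22A7 (-0.66), CPT1A (-0.56), NQO1 (-0.42), GPAM (-0.32) and ASS1 (-0.30), of which CYP1A1, ASNS, CPT1A and NQO1 were not called at the medium dose. For ASNS (-0.01), CPT1A (-0.004) and NQO1 (-0.02) the medium dose difference was smaller than its SE, so its sign there is uncertain. SLC39A10, SLC39A4 and PLIN2 were called at the medium dose and not at the high dose. Dried ginger had 2 libraries at the high dose, and no cause of these changes was tested.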

How the results depend on the processing

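The count of 998 called genes between the extracts at the medium dose was 713 in the ginger libraries alone with the replicate number as a block (467 higher and 246 lower), 724 there without it, and 1289 with only the groups compared. Over all libraries it was 880 by DESeq2, 1009 by RLE scaling and 937 after thinning to 1 depth. The deviations of same-numbered libraries correlated at -0.015, -0.114 and -0.018 over 9891 genes, and 0 of 3 fresh ginger libraries matched their own number best, so the numbers only name the libraries. Among the named genes at the medium dose, no alternative reversed the sign of a called difference. Other genes and comparisons were not checked for this. Of 122 named genes, 96 never changed their call; of 1826 gene and setting pairs, 118 lost it and 11 gained it. The lost calls include those of IGFBP3, HBEGF, E2F1, TEF, IFIH1, SLC25A20, HMOX1, GCLM, CPS1, HAMP, SLC51B, RELB and HMMR under 1 or more settings.

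Leaving out single libraries gave 657 to 814 genes for the medium dose, 1076 to 1274 for fresh ginger against the vehicle, 51 to 232 for dried ginger against the vehicle, 2020 to 3028 for the high dose, 3 to 29 for the low dose, 991 to 1601 for the change between doses, 798 to 1057 for fresh ginger medium against low and 32 to 488 for dried ginger medium against low. With no filter on low counts, dried ginger against the vehicle had 396, the low dose 287 and dried ginger medium against low 593. With a filter of 5 CPM the low dose had 12, and by DESeq2 11. With only the groups compared the high dose had 1735, the low dose 0 by edgeR (850 at an unadjusted p below 0.05) and dried ginger medium against low 2. In the ginger libraries alone the low dose had 3 and dried ginger medium against low 25, or 2 and 35 with the replicate block. Without 3 libraries of other groups that stood apart, dried ginger against the vehicle had 333. That setting was not run for the comparisons that use the low dose of dried ginger. Depth limits genes below about 1 CPM, and the causes of these shifts were not tested.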

Other observations

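Some gene groups outside those described above also differed between fresh and dried ginger at the medium dose, by edgeR's quasi-likelihood test. Counts within a list are to be read against 4.31% of all tested genes called higher and 2.85% called lower, and those of 1 or 2 genes are near these shares. AQP3, a channel for water and glycerol, stood at 7.41, 7.84 and 6.98 CPM with fresh and 5.19, 5.29 and 6.03 with dried ginger (0.43 ± 0.102, adjusted p = 0.00385). It was lower with fresh ginger at the high dose, where it stood at 37.2, 32.4 and 33.8 CPM against 63.7 and 62.7. SLC22A7, an organic anion transporter of the hepatocyte, stood at 6.79, 5.93 and 7.02 CPM against 9.07, 10.1 and 9.68 (-0.54 ± 0.112), and KNG1, the kininogen gene, at 3.2, 4.1 and 4.79 against 6.15, 6.74 and 5.43 (-0.60 ± 0.125). Of 10 tight junction genes, CLDN1 was higher (0.15 ± 0.037) and TJP3 lower (-0.46 ± 0.101). Of 17 circadian clock genes, 2 were higher and 2 lower. BHLHE40 and RORA (12.2, 12.6 and 12.1 CPM against 9.79, 9.68 and 8.67, 0.39 ± 0.082) were the higher ones, and NFIL3 (-0.17 ± 0.045) was lower.

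Of 13 urea cycle and amino acid catabolism genes, 5 were lower with fresh ginger, among them ASS1, which makes argininosuccinate, at 56.5, 57.3 and 56 CPM against 63.5, 62.8 and 68.6 (-0.20 ± 0.044). Of 15 hepatocyte transcription factors, 3 were lower, FOXA1, NR2F2 (-0.21 ± 0.047) and CEBPA. CEBPA stood at 122, 118 and 128 CPM against 138, 192 and 171 (-0.44 ± 0.116), a wide spread with dried ginger, and its call was lost without dried ginger replicate 2 or fresh ginger replicate 2. Of 16 heat shock genes, 2 were lower, DNAJA1 (-0.16 ± 0.039) and HSP90AA1 (-0.14 ± 0.037), and none was higher. Of 27 autophagy and lysosome genes, 4 were higher and none lower, among them NPC1, which moves cholesterol out of lysosomes (130, 137 and 129 CPM against 117, 121 and 115, 0.17 ± 0.040).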
